A study of Mus musculus with 12 samples.

Results

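This report describes the genes of the Wnt pathway in mouse neural progenitor cells (mNPCs): 44 genes that encode ligands, proteins for ligand release, receptors, secreted inhibitors, intracellular transducers and transcriptional targets with feedback roles. They were chosen by name and found by matching the Ensembl identifiers of the deposited count table to GRCm38 symbols. Of the 44, 43 were in the table with more than 10 counts in total, and they were 43 of 17076 genes that passed this minimum. Wnt3a was not among the rows, which hold genes with counts in at least 2 libraries. The cells were cultured from the hippocampus of newborn pups and sequenced as poly(A) RNA, with 3 libraries for each of 4 genotypes. Kmt2a+/+ cells carried no altered allele and no Cre. Kmt2a+/LSL cells carried 1 Kmt2a allele whose first intron holds LSL, a stop signal between loxP sites, which ends the transcript early and makes the cells heterozygous for a loss of Kmt2a. The nes-cre+/- cells carried a Cre recombinase driven by nestin regulatory sequence and no cassette. The nes-cre+/-Kmt2a+/LSL cells carried both the cassette and the Cre, which removes the stop in nestin-expressing cells and their descendants. The study asked whether the consequences of losing 1 copy of Kmt2a can be reversed before birth. The LSL line was made in C57BL/6J zygotes. How many pups stand behind each culture, and the share of cells with a removed stop in each, were not given in the sources used here, and the p-values below measure only the spread between these libraries, which may in part be technical.

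Wnt ligands are secreted lipid-modified proteins. In the canonical branch they bring a frizzled receptor and an LRP coreceptor together at the cell surface, which stops a complex built on axin and APC from marking β-catenin for destruction. β-catenin then enters the nucleus and acts with TCF/LEF factors on target genes, several of which encode proteins that dampen the pathway again. In the hippocampus, Wnt signals are known for patterning the early primordium and for the upkeep and neuronal differentiation of the progenitors of the dentate gyrus. Kmt2a encodes a methyltransferase for lysine 4 of histone H3.

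Library totals lay between 18280008 and 28596919 estimated counts, and 3 counts corresponded to between 0.105 and 0.164 CPM, which are counts scaled to a common library total. Such a floor covers only the error of counting. Kmt2a itself matched the labels: its normalized counts, which are counts scaled to a common library size, were 3972, 3979 and 3991 in the Kmt2a+/LSL libraries and between 6205 and 7427 in the other 9. Kmt2a changed by -0.80 ± 0.13 (SE, log2 fold change) between Kmt2a+/LSL and Kmt2a+/+, with an adjusted p = 0.306 in edgeR's quasi-likelihood test and 6.09e-18 in DESeq2. Against nes-cre+/-Kmt2a+/LSL the libraries of Kmt2a+/LSL were also all lower, with an adjusted p = 1 in edgeR and 1.24e-12 in DESeq2. All 8 listed neural progenitor markers were expressed, with a summed level between 5510 and 13000 CPM. The 5 microglial and the 5 choroid plexus markers stayed at or below 1.73 and 1.55 CPM in sum, with Aif1 and Tmem119 at no more than 3 counts in any library. The 4 endothelial markers in the table (Cldn5 was not) summed to between 2.27 and 5.12 CPM, and the 6 meningeal markers to between 10.8 and 16.7 CPM. In each of these 2 sets, 3 markers had a mean count of at least 10. Markers of the cortical hem and Cajal-Retzius cells, a Wnt source of the developing hippocampus, summed to between 16.1 and 42.9 CPM, with 30.4 to 42.9 in Kmt2a+/+, 18 to 40.2 in Kmt2a+/LSL, 20.8 to 33 in nes-cre+/- and 16.1 to 33.2 in nes-cre+/-Kmt2a+/LSL. Only 3 of these 5 markers had a mean count of at least 10, so the sum does not show that the whole set was expressed. The 6 neuronal markers summed to between 1020 and 1920 CPM, the 5 astrocytic markers to between 1130 and 3230 CPM and the 6 oligodendrocyte lineage markers to between 494 and 1420 CPM, and both ends of each of these 3 ranges were Kmt2a+/+ libraries. The part of these markers in the results that follow was not tested. In cultures of mixed cells, fewer cells of a type and less RNA per cell cannot be told apart. The library Kmt2a+/+ replicate 1 stood apart, with a median correlation of 0.749 with the other libraries of its genotype, against between 0.846 and 0.979 in the other 11 libraries.

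The pathway was expressed from ligand to target in all 4 genotypes. Levels, given as normalized CPM per kilobase of the longest coding transcript and averaged over the 12 libraries, ran from 385 for Ctnnb1 to 0.0127 for Wnt11. Of the 43 genes, 18 (41.9%) had a level of at least 10, against 36% of the 16926 genes with a level, and 22 lay above the median of all genes, 4.87. In each class a few genes carried most of the transcript. Wnt7b, Wnt5a and Wnt7a made up 91.5% of the summed level of the ligands, and Fzd9, Fzd3 and Fzd1 made up 78.9% of that of the frizzled receptors. The 11 genes under a level of 1 were the ligands Wnt8b, Wnt3 and Wnt11, the receptor Fzd6, the inhibitors Dkk2, Sfrp5 and Dkk1, and the targets Apcdd1, Notum, Lef1 and Sp5. A level per kilobase depends on the transcript taken for the length: with the median length of a gene's coding transcripts, Ctnnb1 rose to 1740 and Axin2 from 24.6 to 127, Apcdd1 went from 0.775 to 4.47 and so off the list of genes under 1, while each class kept the same gene at the top.

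**Figure D1:**
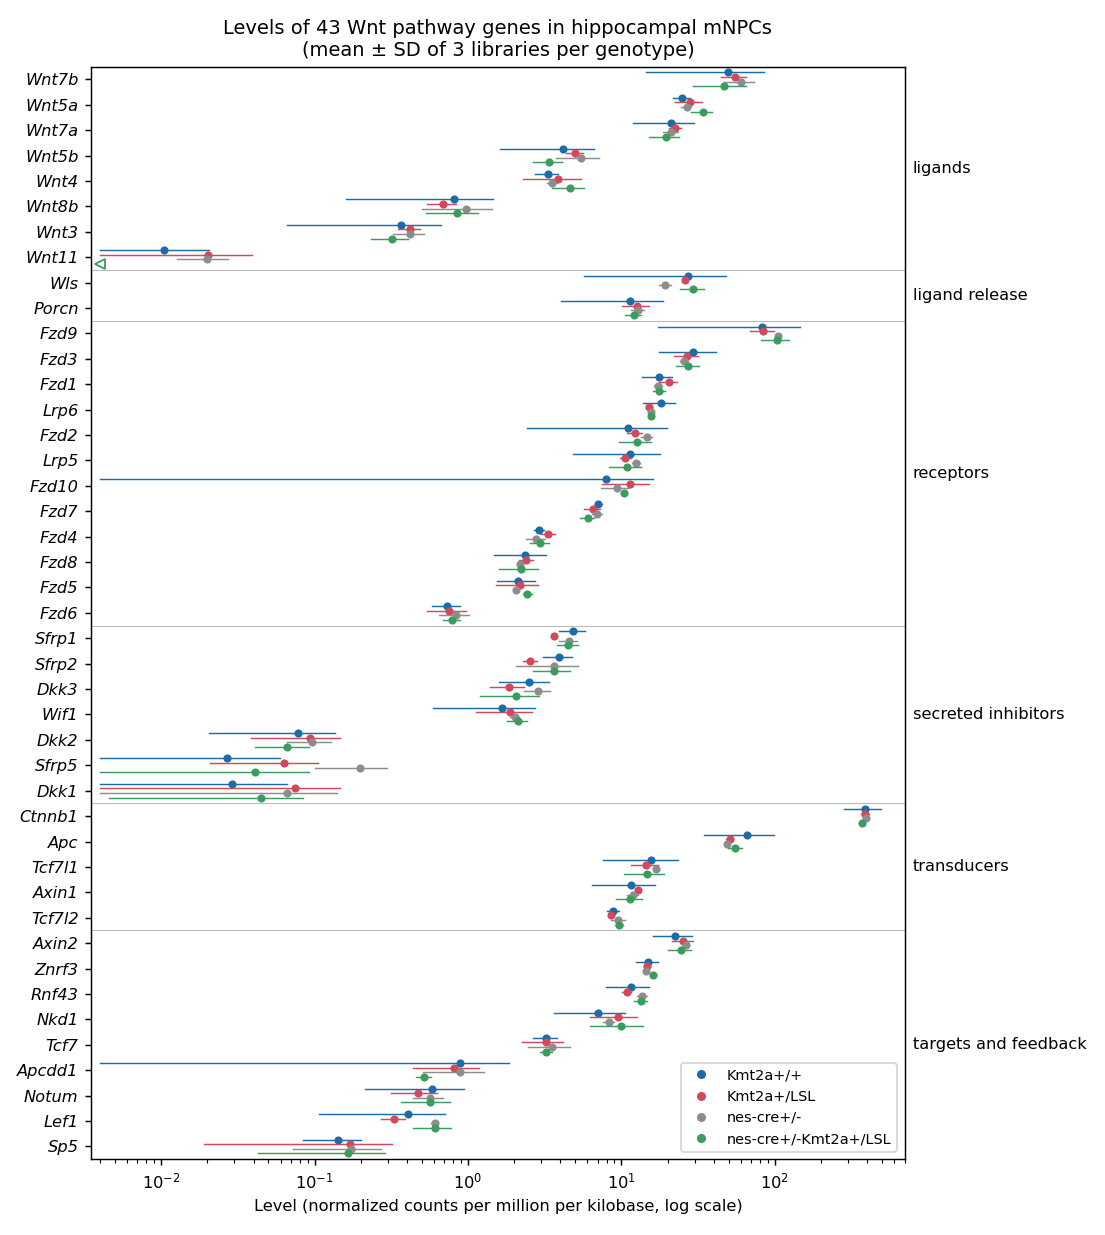
Level of each of the 43 Wnt pathway genes (normalized CPM per kilobase, log axis) by class, as the mean (point) and SD (line) of 3 libraries for each of the 4 genotypes. Lines that would reach 0 end at the left edge, and the open triangle marks Wnt11 at 0 in nes-cre+/-Kmt2a+/LSL. Levels span from 0.0127 to 385 when averaged over all libraries. Apart from Wnt11, the 4 genotypes of a gene cover a small part of that span, but many neighboring genes overlap. Sfrp5 runs from 0.0269 in Kmt2a+/+ to 0.199 in nes-cre+/-.

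The values of the library Kmt2a+/+ replicate 1 set the spread of many Wnt genes, and they moved with the base composition of the transcript. The log2 ratio of this library to the mean of the other 2 Kmt2a+/+ libraries had a Pearson correlation of -0.71 with the GC content of the longest transcript over 11615 genes with a mean normalized count of at least 50, and of -0.732 over the 35 Wnt genes among them. These correlations are across genes, which share a library and are not independent replicates. Of the 13 Wnt genes with a GC content of at least 55%, 10 lay below a log2 ratio of -1, and of the 8 with less than 48%, none did and 7 lay above 0. The second count depends on the cut: just above it, Apcdd1 (48.2% GC) had a log2 ratio of -2.816 and Wif1 (49.65% GC) one of -2.03. Over all 35, 15 lay below -1 and 2 above 1, against 29.3% and 17.4% of the 11615 genes. The library nes-cre+/-Kmt2a+/LSL replicate 1 showed a weaker slope of the same sign, with a correlation of -0.464 over all genes and -0.604 over the 35 Wnt genes, none of which lay beyond a log2 ratio of 1 in either direction. The same ratio for each of the other libraries, taken to the mean of the remaining 2 of its genotype, had a correlation over all genes of 0.467 for Kmt2a+/+ replicate 2 and 0.737 for Kmt2a+/+ replicate 3, whose reference includes replicate 1, and between -0.233 and 0.383 for the remaining 8. In each genotype the correlation was negative for replicate 1 and positive for replicate 3, though near 0 in nes-cre+/- (-0.0351 and 0.0536). Whether base composition accounts for any difference between genotypes was not tested.

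2 frizzled receptors show the contrast in sequence. Fzd9 (chr5:135248938-135251230, minus strand, GRCm38) has a transcript of 62.2% GC, and Fzd3 (chr14:65192449-65262463, minus strand) one of 40.3%. The first 150 bases of each coding sequence, from the GENCODE transcripts of that build, are printed 5′ to 3′ with G and C in capitals, and they lie in a single coding exon each, at chr5:135250880-135251029 and chr14:65252983-65253132. In these stretches, 113 bases (75.3%) of Fzd9 and 66 bases (44%) of Fzd3 are G or C.
Fzd9: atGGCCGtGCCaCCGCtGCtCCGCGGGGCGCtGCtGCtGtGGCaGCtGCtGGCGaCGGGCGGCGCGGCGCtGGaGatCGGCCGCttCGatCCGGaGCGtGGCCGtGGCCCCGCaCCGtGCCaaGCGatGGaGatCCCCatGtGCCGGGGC
Fzd3: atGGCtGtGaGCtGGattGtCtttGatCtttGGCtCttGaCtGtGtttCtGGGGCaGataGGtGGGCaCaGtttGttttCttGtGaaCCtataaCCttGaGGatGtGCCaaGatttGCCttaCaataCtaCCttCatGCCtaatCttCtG
In Kmt2a+/+ replicate 1, Fzd9 had a normalized count of 485, against 5822 and 7213 in the other 2 libraries of its genotype. Fzd3 was higher there, with 12687 against 8661 and 5474.

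**Figure D2:**
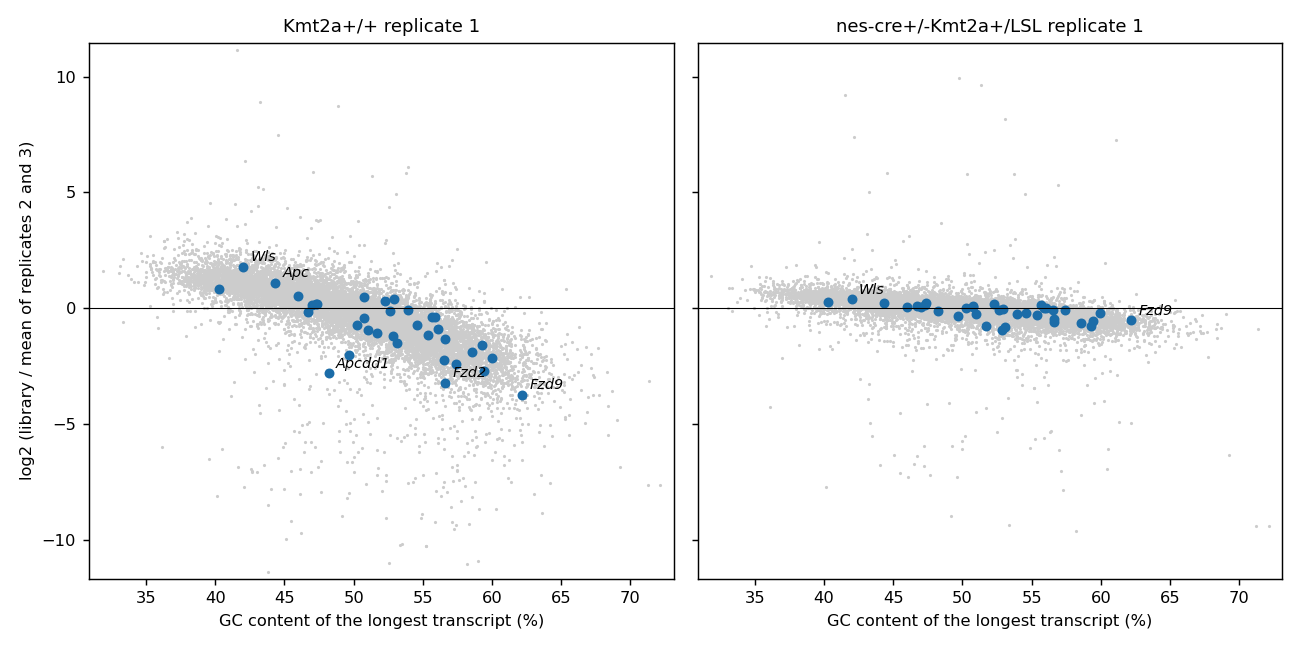
Log2 ratio of replicate 1 to the mean of replicates 2 and 3 of its genotype (y axis) against the GC content of the longest transcript in percent (x axis) for Kmt2a+/+ (left) and nes-cre+/-Kmt2a+/LSL (right), with 35 Wnt pathway genes in blue over 11615 genes in gray. The points slope down in both panels, with correlations of -0.71 and -0.464 over all genes, and Fzd9 lies far below 0 and Wls above 0 on the left.

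None of the 43 Wnt genes was called in any of the 6 comparisons at a Benjamini-Hochberg adjusted p under 0.05 in edgeR's quasi-likelihood test on 12 libraries, and their smallest adjusted p was 1. The share of all genes called was 0% in each of the 6. DESeq2 called none of the 43 either, where it called 0.0293% of all genes for any difference among the 4 genotypes, 0.0411% for Kmt2a+/LSL against Kmt2a+/+, 0.0411% for nes-cre+/-Kmt2a+/LSL against Kmt2a+/LSL, 0.0176% for nes-cre+/- against Kmt2a+/+, 0.0176% for nes-cre+/-Kmt2a+/LSL against nes-cre+/- and 0.0587% for the difference between the LSL effects with and without Cre. At an unadjusted p under 0.05 in edgeR, 1 of the 43 (Sfrp5) differed among the 4 genotypes, against 1.73% of all genes. For Kmt2a+/LSL against Kmt2a+/+ it was 0 of the 43, against 2.11% of all genes, and for nes-cre+/-Kmt2a+/LSL against Kmt2a+/LSL it was 1 (Wnt11), against 2.07%. The comparison of nes-cre+/- with Kmt2a+/+ gave 1 (Sfrp5), against 1.76%, and that of nes-cre+/-Kmt2a+/LSL with nes-cre+/- gave 2 (Sfrp5 and Wnt11), against 1.53%. For the difference between the LSL effects it was 2 (Sfrp5 and Wnt11), against 2.01%. For a set of 43, 1 gene is 2.33% and 2 genes are 4.65%, and Wnt11 and Sfrp5 were among the 4 least expressed genes of the pathway.

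The intervals show which sizes of change these libraries can resolve. In Kmt2a+/LSL against Kmt2a+/+, the median log2 fold change of the 43 genes was 0.03, with 25 above 0 and 18 below, against a median of 0 over all genes. The 95% interval lay within a 2-fold change in either direction for 23 of the 43 (53.5%), against 47.7% of all genes. Without Kmt2a+/+ replicate 1 this number was 29 (67.4%), against 58.1%, and the median was -0.15, with 17 above 0 and 26 below, so that 16 of the 43 genes had the opposite sign in the 2 fits. All 5 transducers stayed within these bounds in both fits, as did 9 of the 12 receptors with all libraries and 11 without that replicate. The inhibitors were the least precise class, with 1 of 7 within the bounds in the first fit and 2 in the second. In nes-cre+/-Kmt2a+/LSL against Kmt2a+/LSL the median was also 0.03, and 24 of the 43 intervals (55.8%) lay within a 2-fold change, against 51% of all genes. In nes-cre+/- against Kmt2a+/+ it was 0.14, with 29 above 0 and 14 below and 23 intervals (53.5%) within these bounds, against 47.2%, but without Kmt2a+/+ replicate 1 it was -0.04, with 16 above 0 and 27 below. In nes-cre+/-Kmt2a+/LSL against nes-cre+/- it was -0.03, with 21 intervals (48.8%) within the bounds, against 50.9%, and without that replicate the number was 32 (74.4%), against 64.9%. Comparisons that share libraries are not independent of each other.

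**Figure D3:**
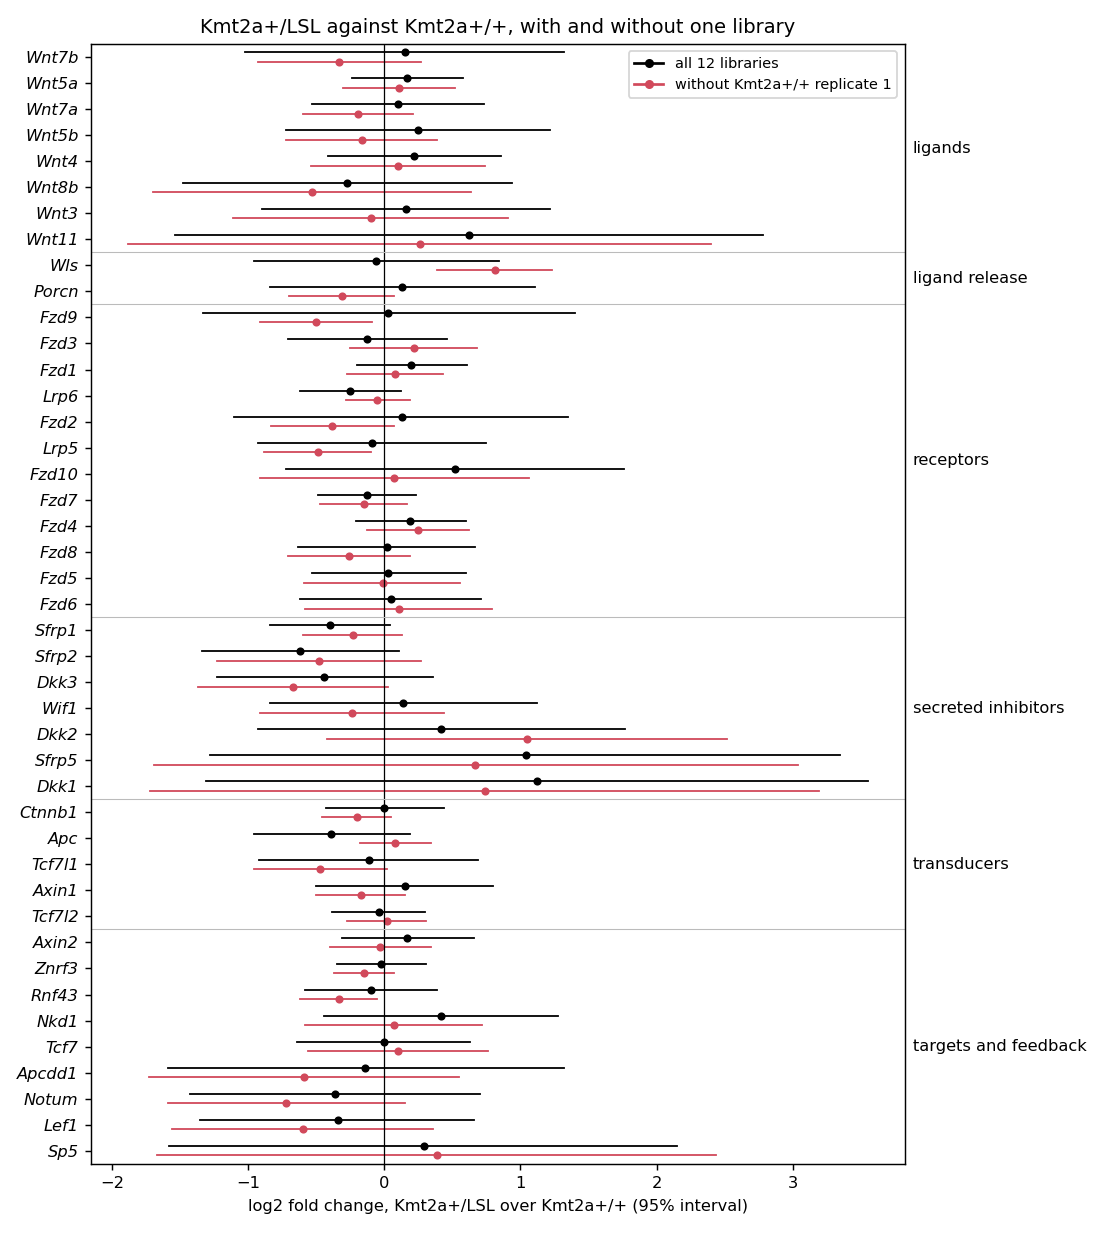
Log2 fold change of Kmt2a+/LSL over Kmt2a+/+ (x axis; points, with 95% intervals as lines) for the 43 Wnt pathway genes by class, fitted with all 12 libraries (black) and without Kmt2a+/+ replicate 1 (red). With all libraries 23 of the intervals lie within a 2-fold change and without that replicate 29, and the red points of Wls, Fzd9, Lrp5 and Rnf43 have intervals that leave out 0. Wnt11 and Sfrp5 are drawn as well, but their Kmt2a+/+ libraries are all at or below 3 counts, and their points are not interpreted.

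Leaving out Kmt2a+/+ replicate 1 raised the number of low p-values among all genes in each of the 6 comparisons, and among the 43 Wnt genes in 4 of them. In Kmt2a+/LSL against Kmt2a+/+, 4 of the 43 (9.3%; Fzd9, Lrp5, Rnf43 and Wls) then had an unadjusted p under 0.05, against 9.68% of all genes. For any difference among the 4 genotypes it was 3 (6.98%; Sfrp5, Wls and Wnt5b), against 6.19%. The number was 3 (6.98%; Rnf43, Wnt11 and Wnt5b), against 4.37%, in nes-cre+/-Kmt2a+/LSL against Kmt2a+/LSL, and 4 (9.3%; Sfrp5, Wls, Wnt11 and Wnt5b), against 3.59%, in nes-cre+/-Kmt2a+/LSL against nes-cre+/-. The left-out library is in neither of the groups of these last comparisons but it enters their fit through the shared estimate of the spread, the normalization and the filter. In nes-cre+/- against Kmt2a+/+ the number stayed at 1 (2.33%), against 6.73% of all genes, and for the difference between the LSL effects it stayed at 2 (4.65%; here Wnt11 and Znrf3), against 3.71%. None of the 43 passed at an adjusted p under 0.05 in edgeR in any of these. In DESeq2 without that library, 1 of the 39 Wnt genes with an adjusted p, Wls, was called for any difference among the 4 genotypes, against 0.264% of all genes.

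Which Wnt genes had a low unadjusted p against Kmt2a+/+ depended on the library left out and on the method. In Kmt2a+/LSL against Kmt2a+/+, where the number was 0 with all libraries, it was 2 (4.65%; Apcdd1 and Wnt3) without Kmt2a+/+ replicate 2, against 3.96% of all genes. Without Kmt2a+/+ replicate 3 it was 4 (9.3%; Apc, Fzd1, Fzd10 and Lrp6), against 6.45%, and none of these 4 was among the 4 without replicate 1. With limma-voom it was 5 (11.6%; Dkk3, Lrp5, Rnf43, Tcf7l1 and Wls), against 7.68%. A correction for transcript GC content gave 4 (9.3%; Apc, Lrp5, Lrp6 and Sfrp1), against 3.95%, and the same correction with the replicate number as a block gave 6 (14%; Apc, Lrp5, Lrp6, Rnf43, Sfrp1 and Sfrp2), against 3.87%. In nes-cre+/- against Kmt2a+/+, the number went from 1 to 6 (14%; Apc, Apcdd1, Lef1, Sfrp5, Wnt3 and Wnt8b) without Kmt2a+/+ replicate 2, against 4.98%, and to 5 (11.6%; Apc, Fzd10, Lrp6, Sfrp5 and Wls) without replicate 3, against 5.79%. None of the 43 passed an adjusted p under 0.05 in any of these fits.

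The ligands were led by Wnt7b (chr15:85535437-85582473, minus strand), which acts through β-catenin in the developing brain and its vessels. Its level was 52.8 ± 19 (SD, n = 12), followed by Wnt5a at 28.3 ± 5.06, the ligand best known for β-catenin-independent signaling, and Wnt7a at 20.9 ± 4.6. The libraries of these 3 overlap in level. Wnt5b at 4.49 ± 1.6 and Wnt4 at 3.82 ± 1 overlap as well, and below them came Wnt8b at 0.828 ± 0.387 and Wnt3 at 0.381 ± 0.149. The normalized counts of Wnt7b were 849, 6397 and 4875 in Kmt2a+/+, 4430, 5347 and 3672 in Kmt2a+/LSL, 3667, 5103 and 5830 in nes-cre+/-, while nes-cre+/-Kmt2a+/LSL had 2892, 3091 and 5489. The first Kmt2a+/+ library is the lowest of the 12, and the genotypes overlap. Wnt7b in Kmt2a+/LSL differed from Kmt2a+/+ on the log2 scale by 0.15 ± 0.53 (SE) with all libraries and -0.33 ± 0.27 without that replicate. In Kmt2a+/LSL, 7 of the 8 ligands had a higher fitted value than in Kmt2a+/+ with all libraries (median 0.16), against 8508 of 17076 genes. Without replicate 1 it was 3 of the 8 (median -0.13), against 8478 of 16987 genes. Wnt11, at or below 3 counts in every library, is among the higher ones in both fits.

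Wnt11, the least expressed gene of the pathway (chr7:98835112-98855195, plus strand), had estimated counts of 0, 1 and 2 in Kmt2a+/+, 0, 2 and 3 in Kmt2a+/LSL, 2, 2 and 1 in nes-cre+/-, and 0 in all 3 nes-cre+/-Kmt2a+/LSL libraries. Every library is thus at or below 3 counts, where a count of 0 cannot be told from a low level, and no fold change is given in the text. The 3 comparisons in which Wnt11 had an unadjusted p under 0.05 all had an adjusted p = 1 (edgeR). Wnt5b, a relative of Wnt5a, had normalized counts of 69.8, 319 and 315 in Kmt2a+/+, 274, 322 and 252 in Kmt2a+/LSL, 206, 329 and 399 in nes-cre+/-, while nes-cre+/-Kmt2a+/LSL had 173, 162 and 238. The nes-cre+/-Kmt2a+/LSL libraries lay below those of Kmt2a+/LSL and overlapped those of nes-cre+/-. Relative to Kmt2a+/LSL, Wnt5b in the cells with cassette and Cre differed on the log2 scale by -0.57 ± 0.45 (SE; adjusted p = 1, edgeR) with all libraries and -0.58 ± 0.24 without Kmt2a+/+ replicate 1 (adjusted p = 1).

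Ligand release was represented by Wls, the carrier that takes Wnt proteins to the cell surface, at a level of 25.4 ± 10.2 (SD, n = 12), and Porcn, the acyltransferase that attaches their lipid, at 12.2 ± 3.45. Wls (chr3:159839672-159938664, plus strand; 42% GC) had normalized counts of 4378, 1531 and 993 in Kmt2a+/+, 2251, 2173 and 2196 in Kmt2a+/LSL, 1477, 1738 and 1733 in nes-cre+/-, while nes-cre+/-Kmt2a+/LSL had 2955, 2060 and 2498. The first Kmt2a+/+ library was the highest of all 12, and the other 2 lay below every Kmt2a+/LSL library. With all libraries, Wls differed between Kmt2a+/LSL and Kmt2a+/+ on the log2 scale by -0.06 ± 0.41 (SE; adjusted p = 1, edgeR). Without Kmt2a+/+ replicate 1 it was 0.81 ± 0.19 (adjusted p = 0.507, edgeR), and in DESeq2 0.80 with an adjusted p = 0.0584. The adjusted p of Wls for any difference among the 4 genotypes was 1 in DESeq2 with all libraries and 0.0058 without that replicate, so that its call rests on leaving out 1 library. The nes-cre+/-Kmt2a+/LSL libraries were all above those of nes-cre+/- (two-sided exact permutation p = 0.1, the smallest that 3 against 3 allows), with a log2 fold change of 0.60 ± 0.41 (adjusted p = 1, edgeR). Porcn had normalized counts of 133, 719 and 692 in Kmt2a+/+, 438, 640 and 626 in Kmt2a+/LSL, 569, 528 and 637 in nes-cre+/-, and 517, 612 and 494 in nes-cre+/-Kmt2a+/LSL, with the first Kmt2a+/+ library below the other 11.

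Among the receptors, Fzd9 had the highest level, 93.6 ± 31.8 (SD, n = 12), and 1 of its 12 libraries, Kmt2a+/+ replicate 1, lay at 8.82. Fzd9 is a frizzled expressed in the developing hippocampus. Fzd3 at 27.3 ± 5.99, a receptor of planar polarity and axon guidance, Fzd1 at 18.2 ± 2.52, Lrp6 at 16.1 ± 2.24, Fzd2 at 12.6 ± 4.2 and Lrp5 at 11.3 ± 3.1 followed, and neighbors in this order overlap in their libraries. The order also depends on the transcript length: with the median length, Lrp6 rose to 29.9, above Fzd3 at 27.3. Lrp6, a coreceptor that sits with the frizzled in the canonical complex, had a coefficient of variation of 4.71% over the 11 libraries without Kmt2a+/+ replicate 1, the lowest of the receptors there, while over all 12 libraries Fzd7, Fzd4 and, by a small margin, Fzd1 varied less. Fzd10 (9.73), Fzd7 (6.63), Fzd4 (3), Fzd8 (2.29), Fzd5 (2.2) and Fzd6 (0.777) were lower. The normalized counts of Fzd9 were 485, 5822 and 7213 in Kmt2a+/+, 3771, 4599 and 5462 in Kmt2a+/LSL, 5936, 5837 and 5592 in nes-cre+/-, while nes-cre+/-Kmt2a+/LSL had 4374, 6658 and 5929. The Kmt2a+/LSL libraries thus lay above the first and below the other 2 Kmt2a+/+ libraries. Between Kmt2a+/LSL and Kmt2a+/+, Fzd9 differed on the log2 scale by 0.03 ± 0.62 (SE; adjusted p = 1, edgeR) with all libraries and -0.50 ± 0.19 without that replicate (adjusted p = 0.507). Lrp5, the other coreceptor, had normalized counts of 494, 1676 and 2019 in Kmt2a+/+ and of 1257, 1250 and 1442 in Kmt2a+/LSL, again between the first and the other 2. Lrp5 differed on the log2 scale by -0.09 ± 0.38 with all libraries and -0.49 ± 0.18 without replicate 1 (adjusted p = 0.507, edgeR). Fzd6, the least expressed receptor, had normalized counts of 82.7, 87.6 and 57.6 in Kmt2a+/+, 57.5, 75.9 and 101 in Kmt2a+/LSL, 69.1, 81.9 and 108 in nes-cre+/-, while nes-cre+/-Kmt2a+/LSL had 90.7, 84.4 and 69.9, and its 4 genotypes overlap. The fitted changes of the 12 receptors in Kmt2a+/LSL lay between -0.25 (Lrp6) and 0.52 (Fzd10) with all libraries, with a median of 0.03, and between -0.50 (Fzd9) and 0.25 (Fzd4) without Kmt2a+/+ replicate 1, with a median of -0.03.

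Secreted inhibitors bind Wnt ligands (the Sfrp family and Wif1) or the LRP coreceptors (Dkk1 and Dkk2). Dkk3 carries the family name without a settled place in Wnt signaling. Sfrp1 (chr8:23411502-23449632, plus strand), at a level of 4.38 ± 0.729 (SD, n = 12), and Sfrp2 (chr3:83766321-83774316, plus strand), at 3.44 ± 1.03, were the highest, followed by Dkk3 at 2.31 and Wif1 at 1.92, and the libraries of neighbors in this order overlap. Sfrp1 had normalized counts of 626, 449 and 452 in Kmt2a+/+, 375, 395 and 381 in Kmt2a+/LSL, 543, 424 and 452 in nes-cre+/-, and 493, 389 and 528 in nes-cre+/-Kmt2a+/LSL. Sfrp2 had 225, 146 and 194 in Kmt2a+/+, 110, 135 and 121 in Kmt2a+/LSL, 258, 110 and 157 in nes-cre+/-, while nes-cre+/-Kmt2a+/LSL had 172, 129 and 222. In both genes the 3 libraries of Kmt2a+/LSL were lower than all 3 of Kmt2a+/+, for which a two-sided exact permutation test gives p = 0.1, the smallest possible. No other of the 43 genes had such a gap between these genotypes, so that 2 (4.65%) did, against 4.05% of all genes. Sfrp1 differed on the log2 scale by -0.40 ± 0.20 (SE; adjusted p = 1, edgeR), the smallest p of the 43 genes in this comparison, and Sfrp2 differed by -0.62 ± 0.33 (adjusted p = 1). Without Kmt2a+/+ replicate 1 these differences were -0.23 ± 0.17 for Sfrp1 and -0.48 ± 0.34 for Sfrp2. Against Kmt2a+/LSL, the nes-cre+/-Kmt2a+/LSL cells differed by 0.29 ± 0.20 in Sfrp1 and 0.51 ± 0.33 in Sfrp2 (adjusted p = 1 for both). Of the 31-base words of Sfrp2 transcripts, 13.67% also occur in transcripts of other genes, so that part of its estimated counts could belong elsewhere.

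Sfrp5 (chr19:42197971-42202252, minus strand) had the smallest p of the pathway for any difference among the 4 genotypes (adjusted p = 1, edgeR), at very low counts. Its estimated counts were 0, 3 and 1 in Kmt2a+/+, 3, 5 and 1 in Kmt2a+/LSL, 7, 6 and 15 in nes-cre+/-, while nes-cre+/-Kmt2a+/LSL had 0, 5 and 1. The nes-cre+/- libraries were above all 9 others. Sfrp5 was the only one of the 43 genes (2.33%) whose nes-cre+/- and Kmt2a+/+ libraries did not overlap, against 4.35% of all genes. With all 3 Kmt2a+/+ libraries at or below 3 counts, no fold change is given in the text for Sfrp5, and its adjusted p was 1 in all 4 comparisons in which its unadjusted p was under 0.05 (edgeR). Dkk1, a target of the pathway as well as an inhibitor, had estimated counts of 0, 1 and 5 in Kmt2a+/+, 10, 1 and 3 in Kmt2a+/LSL, 3, 0 and 9 in nes-cre+/-, and 0, 5 and 3 in nes-cre+/-Kmt2a+/LSL, which overlap. Dkk2 had between 3 and 13.

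**Figure D4:**
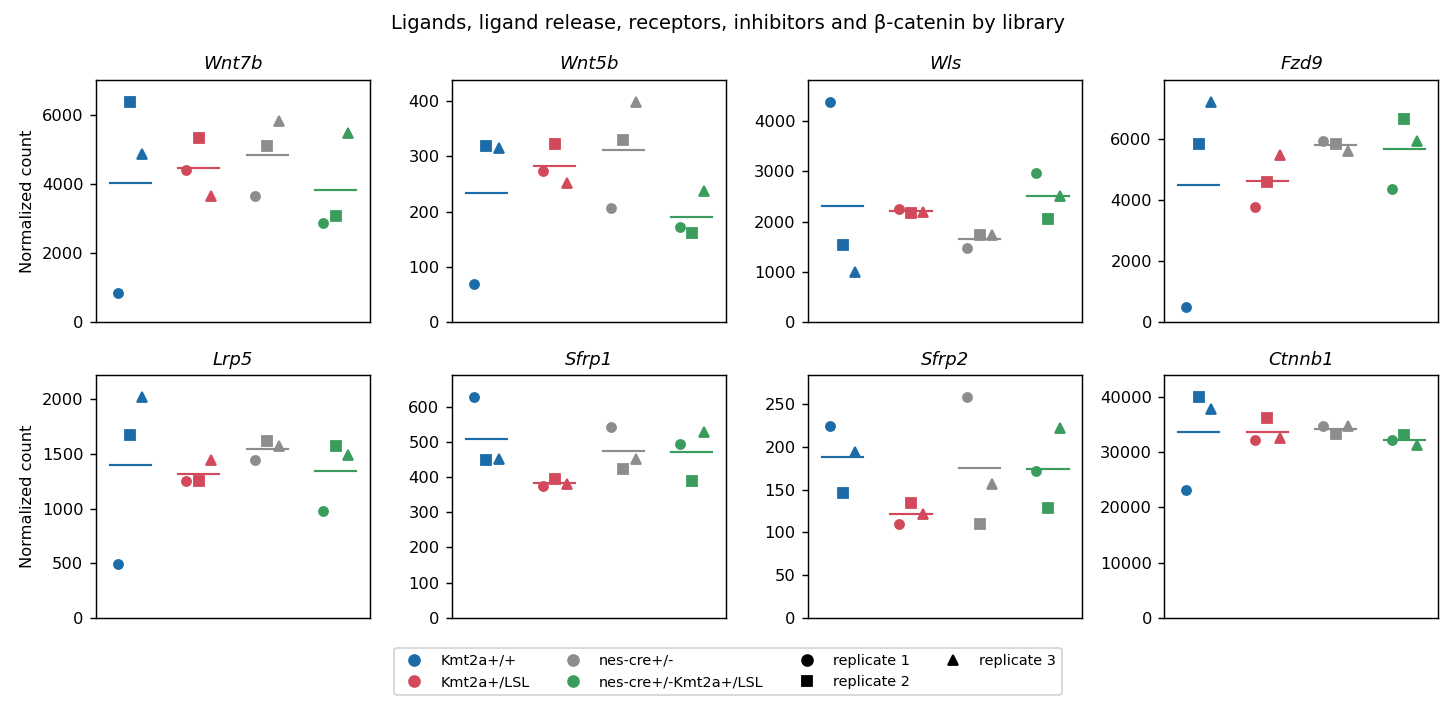
Normalized counts (y axis, from 0) of Wnt7b, Wnt5b, Wls, Fzd9, Lrp5, Sfrp1, Sfrp2 and Ctnnb1 in the 12 libraries, colored by genotype with the replicate number as the symbol and the mean of 3 libraries as a line. Kmt2a+/+ replicate 1 (blue circle) is the lowest library for Wnt7b, Wnt5b, Fzd9, Lrp5 and Ctnnb1 and the highest for Wls and Sfrp1, and the Kmt2a+/LSL libraries lie below all Kmt2a+/+ libraries for Sfrp1 and Sfrp2.

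Among the transducers, Ctnnb1 (chr9:120929216-120960507, plus strand), which encodes β-catenin, had a level of 385 ± 47.4 (SD, n = 12), above every other gene of the pathway in every library. It was followed by Apc (55.3 ± 15.5), a scaffold of the destruction complex, and by Tcf7l1 (15.4 ± 4.15), Axin1 (11.9 ± 2.44) and Tcf7l2 (9.15 ± 0.795), whose libraries overlap. The normalized counts of Ctnnb1 were 23134, 39909 and 37731 in Kmt2a+/+, 32225, 36263 and 32616 in Kmt2a+/LSL, 34806, 33285 and 34676 in nes-cre+/-, while nes-cre+/-Kmt2a+/LSL had 32252, 33025 and 31275. The first Kmt2a+/+ library was the lowest, and the other 11 lay between 31275 and 39909. Ctnnb1 in Kmt2a+/LSL differed from Kmt2a+/+ on the log2 scale by 0.00 with a 95% interval from -0.43 to 0.44, and -0.20 with an interval from -0.46 to 0.05 without replicate 1. Apc had 31617 normalized counts in Kmt2a+/+ replicate 1 and between 14475 and 18810 in the other 11 libraries. Tcf7l2, a factor that binds β-catenin at its targets, had 854, 706 and 800 in Kmt2a+/+, 763, 785 and 740 in Kmt2a+/LSL, 742, 915 and 892 in nes-cre+/-, while nes-cre+/-Kmt2a+/LSL had 917, 819 and 839. The nes-cre+/-Kmt2a+/LSL libraries were above those of Kmt2a+/LSL on the log2 scale by 0.17 ± 0.16 (adjusted p = 1, edgeR). In Ctnnb1, 13.18% of the 31-base words occur in other genes.

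Axin2 (chr11:108920349-108950783, plus strand), the standard readout of β-catenin signaling and itself a brake in the destruction complex, led the targets with a level of 24.6 ± 3.96 (SD, n = 12). Its normalized counts were 1595, 2381 and 2885 in Kmt2a+/+, 2783, 2132 and 2823 in Kmt2a+/LSL, 2780, 2743 and 2538 in nes-cre+/-, while nes-cre+/-Kmt2a+/LSL had 2267, 2965 and 2203. The means were 2287 ± 650, 2579 ± 388, 2687 ± 130 and 2478 ± 423 (SD, n = 3 each), and the 4 genotypes overlap. The 95% interval of the log2 fold change of Axin2 in Kmt2a+/LSL against Kmt2a+/+ ran from -0.31 to 0.66 with all libraries and from -0.40 to 0.34 without Kmt2a+/+ replicate 1, so that a change of 2-fold lies outside both. For nes-cre+/-Kmt2a+/LSL against Kmt2a+/LSL it ran from -0.54 to 0.43.

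Znrf3 and Rnf43 encode ubiquitin ligases that remove frizzled receptors from the surface, and had levels of 15 ± 1.33 and 12.3 ± 2.14. Znrf3 had normalized counts of 1807, 2412 and 2479 in Kmt2a+/+, 2160, 2288 and 2153 in Kmt2a+/LSL, 2155, 2262 and 2124 in nes-cre+/-, and 2512, 2335 and 2477 in nes-cre+/-Kmt2a+/LSL. Rnf43 had 760, 1416 and 1392 in Kmt2a+/+, 1057, 1205 and 1082 in Kmt2a+/LSL, 1507, 1294 and 1421 in nes-cre+/-, while nes-cre+/-Kmt2a+/LSL had 1384, 1523 and 1246. In both genes the nes-cre+/-Kmt2a+/LSL libraries were above those of Kmt2a+/LSL, with log2 fold changes of 0.15 ± 0.15 (SE) for Znrf3 and 0.31 ± 0.22 for Rnf43 (adjusted p = 1 for both, edgeR). The Kmt2a+/LSL libraries of Rnf43 lay below 2 of the 3 Kmt2a+/+ libraries, by -0.10 ± 0.22 with all libraries and -0.33 ± 0.13 without replicate 1 (adjusted p = 0.507). Nkd1, an intracellular antagonist that binds Dishevelled, had a level of 8.7 ± 2.85 and normalized counts of 309, 811 and 946 in Kmt2a+/+, 772, 714 and 1287 in Kmt2a+/LSL, 875, 748 and 802 in nes-cre+/-, and 647, 1378 and 912 in nes-cre+/-Kmt2a+/LSL, which overlap throughout.

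Lef1 (chr3:131110471-131224356, plus strand), a TCF/LEF factor that is also a target and is known for its part in making the hippocampus, was low here, at 0.487 ± 0.196. Its normalized counts were 17.1, 62.9 and 22.2 in Kmt2a+/+, 22.4, 28.2 and 32 in Kmt2a+/LSL, 50.6, 53.3 and 47.6 in nes-cre+/-, while nes-cre+/-Kmt2a+/LSL had 65.6, 47.6 and 38.2. The Kmt2a+/LSL libraries lay below all 6 libraries with Cre and within the range of Kmt2a+/+. From Kmt2a+/LSL to nes-cre+/-Kmt2a+/LSL, Lef1 differed on the log2 scale by 0.87 ± 0.44 (SE; adjusted p = 1, edgeR), and other genes share 14.66% of the 31-base words of Lef1. Tcf7, its relative, had 219, 153 and 201 in Kmt2a+/+, 242, 128 and 200 in Kmt2a+/LSL, 283, 171 and 175 in nes-cre+/-, and 206, 193 and 173 in nes-cre+/-Kmt2a+/LSL. Apcdd1, a membrane-bound inhibitor, had 44.2, 517 and 129 in Kmt2a+/+, 156, 324 and 155 in Kmt2a+/LSL, 120, 263 and 312 in nes-cre+/-, while nes-cre+/-Kmt2a+/LSL had 126, 152 and 126. The libraries of Apcdd1 spread widely within the first 3 genotypes. Notum, the enzyme that removes the lipid from Wnt proteins, had 9.98, 33.3 and 48.5 in Kmt2a+/+, 28.7, 15.6 and 31 in Kmt2a+/LSL, 36, 30.7 and 22.8 in nes-cre+/-, while nes-cre+/-Kmt2a+/LSL had 22.7, 42.2 and 25.1, and other genes share 33% of the 31-base words of Notum. Sp5, a transcription factor that responds to β-catenin in many tissues, had estimated counts of 6, 4 and 11 in Kmt2a+/+, 16, 0 and 11 in Kmt2a+/LSL, 7, 14 and 5 in nes-cre+/-, and 1, 13 and 11 in nes-cre+/-Kmt2a+/LSL, which overlap.

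**Figure D5:**
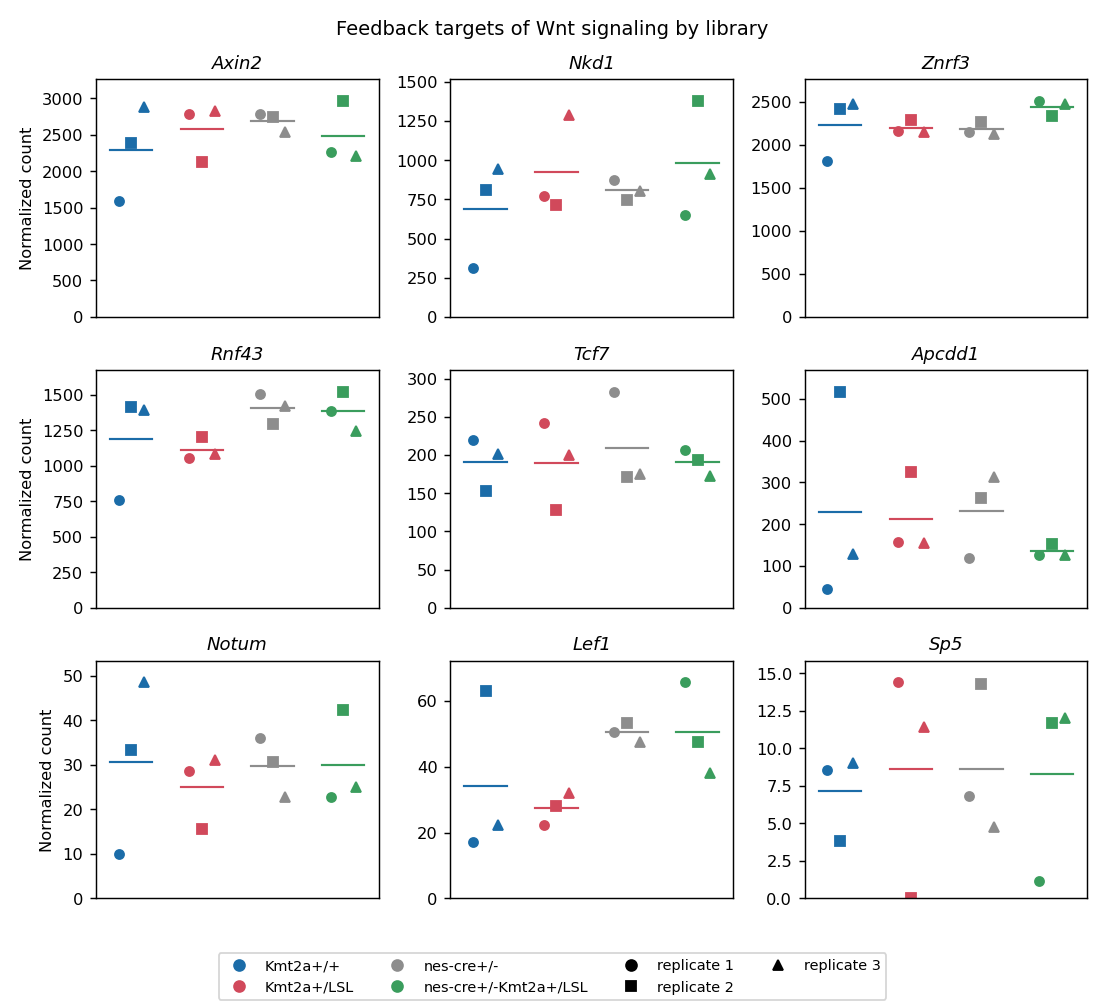
Normalized counts (y axis, from 0) of the 9 feedback targets in the 12 libraries, colored by genotype with the replicate number as the symbol and the mean of 3 libraries as a line. For Axin2, Nkd1, Tcf7, Notum and Sp5 the 4 genotypes overlap, and for Lef1 the 3 Kmt2a+/LSL libraries, between 22.4 and 32, lie below the 6 libraries with Cre.

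TCF/LEF factors bind a short motif, for which the letters CTTTGAT and their reverse complement ATCAAAG were searched in windows from 250 bases before to 50 bases after RefSeq transcript starts (GRCm38.p6). Of the 44 genes, 28 had a window, and the motif was in at least 1 window of 3 (10.7%): Sp5, Wnt5b and Wnt11. It was in 4.29% of the 27025 genes with a window and in 3.73% of all 32851 windows. The 250 bases before the start are shown for Sp5 and Wnt5b, which hold it, and for Axin2, which does not, 5′ to 3′ on the strand of the gene with the motif in capitals. They lie at chr2:70474673-70474922 (plus strand), at chr6:119449387-119449636 (minus strand, 1 of 3 starts of Wnt5b, inside the gene) and at chr11:108920099-108920348 (plus strand).
Sp5: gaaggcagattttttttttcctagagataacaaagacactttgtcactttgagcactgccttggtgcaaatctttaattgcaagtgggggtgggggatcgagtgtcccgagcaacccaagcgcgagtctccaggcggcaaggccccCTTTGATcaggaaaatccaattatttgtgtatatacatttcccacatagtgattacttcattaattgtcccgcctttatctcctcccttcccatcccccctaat
Wnt5b: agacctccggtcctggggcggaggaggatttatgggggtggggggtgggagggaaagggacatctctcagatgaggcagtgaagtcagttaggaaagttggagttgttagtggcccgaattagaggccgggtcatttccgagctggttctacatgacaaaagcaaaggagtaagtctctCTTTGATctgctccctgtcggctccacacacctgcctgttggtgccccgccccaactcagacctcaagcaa
Axin2: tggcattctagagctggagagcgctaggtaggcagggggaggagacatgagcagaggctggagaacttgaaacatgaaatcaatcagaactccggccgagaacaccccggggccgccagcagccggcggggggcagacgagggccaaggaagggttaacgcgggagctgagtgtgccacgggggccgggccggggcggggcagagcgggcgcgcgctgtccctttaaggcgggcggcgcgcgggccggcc
The motif begins 104 bases before the start in Sp5 and 71 bases before it in Wnt5b. A match is a description of these letters, and the absence of one in Axin2 says only that they are not in this window.

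Some of the 43 genes had libraries that did not overlap between nes-cre+/-Kmt2a+/LSL and another genotype, in 2 comparisons that share the nes-cre+/-Kmt2a+/LSL libraries. In nes-cre+/-Kmt2a+/LSL against Kmt2a+/LSL, 6 of the 43 (14%) were apart, against 7.1% of all genes: Tcf7l2, Lef1, Rnf43 and Znrf3 were higher, and Wnt5b and Apcdd1 were lower. In nes-cre+/-Kmt2a+/LSL against nes-cre+/-, 7 (16.3%) were apart, against 6.68%: Wls, Fzd5, Apc and Znrf3 were higher, Sfrp5 and Ctnnb1 were lower, and the seventh was Wnt11, whose counts are all at or below the floor, so that 6 (14%) remain without it. All of these have a two-sided exact permutation p = 0.1, the smallest that 3 libraries against 3 can give, and none passed in edgeR or DESeq2 in these comparisons. Of Fzd5, 17.2% of the 31-base words occur in other genes.

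Another 82 genes of the pathway that are not among the 44 were listed for context, such as further ligands, R-spondins, glypicans, planar polarity genes and regulators of β-catenin, and 77 of them had more than 10 counts. None was called in any of the 6 comparisons in edgeR or DESeq2 with all libraries. Between 1 and 3 of the 77 had an unadjusted p under 0.05 in each (edgeR), against between 1.53% and 2.11% of all genes. In Kmt2a+/LSL against Kmt2a+/+ this was Chd8, a chromatin remodeler that binds β-catenin, with normalized counts of 3588, 2886 and 2732 in Kmt2a+/+ and of 2343, 2546 and 1913 in Kmt2a+/LSL. The nes-cre+/- libraries, with 2692, 2468 and 2319, were also below all 3 of Kmt2a+/+, and those of nes-cre+/-Kmt2a+/LSL, with 3592, 2365 and 2727, overlapped them. Of all genes, 4.05% had no overlap between Kmt2a+/LSL and Kmt2a+/+, and 4.35% had none between nes-cre+/- and Kmt2a+/+. Between Kmt2a+/LSL and Kmt2a+/+, Chd8 differed on the log2 scale by -0.44 ± 0.19 (SE; adjusted p = 1), and -0.31 ± 0.18 without Kmt2a+/+ replicate 1. Celsr3, a planar polarity cadherin, had 132, 138 and 97.1 in nes-cre+/- and 46.5, 49.4 and 59 in nes-cre+/-Kmt2a+/LSL. These groups do not overlap, which held for 6.68% of all genes. Its log2 fold change was -1.24 ± 0.36 (adjusted p = 1, edgeR), and DESeq2 without Kmt2a+/+ replicate 1 gave an adjusted p = 0.0399. Gpc3, a glypican of the cell surface, had 69.1, 50.6 and 99.1 in Kmt2a+/LSL and 155, 127 and 105 in nes-cre+/-Kmt2a+/LSL, which differ by 0.82 ± 0.34 on the log2 scale (adjusted p = 1). Rspo2, a ligand that protects frizzled receptors, had estimated counts of 0, 0 and 4 in Kmt2a+/LSL and of 0, 25 and 23 in nes-cre+/-Kmt2a+/LSL (adjusted p = 1). Dkkl1, related to the Dkk family, had counts of 0 in all Kmt2a+/+ libraries and of 5, 11 and 0 in nes-cre+/- (adjusted p = 1). For the difference between the LSL effects, Celsr3, Chd8 and Dkkl1 had an unadjusted p under 0.05, with an adjusted p = 1 for each.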

How the data were processed

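Reads were pseudoaligned by the authors with kallisto 0.48.0 (GRCm38, mm10) and summarized to genes with tximport. What they deposited are estimated counts without normalization, as whole numbers, for 18911 genes in 12 libraries. Tests planned for counts were applied to them unchanged. A symbol was found for 18718 genes. With R 4.3.3, the 17076 genes whose sum over libraries exceeded 10 were normalized with TMM and tested in 1 fit of 12 libraries with edgeR 4.0.16 (quasi-likelihood F-test, genotype as the only term) and adjusted with the Benjamini-Hochberg method at 0.05. DESeq2 1.42.0 (Wald test, likelihood ratio test for 4 genotypes) and limma-voom 3.58.1 were alternatives. Exact permutation tests used SciPy 1.17.1. GC ratios used a pseudocount of 2. Replicate pairs differed by more than sampling noise (chi-square per degree of freedom of at least 9.55).

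The genes, lists and tests were chosen with earlier results of these data known. All 44 genes are accounted for by class. Log2 fold changes are given in the text for genes with an unadjusted p under 0.05 with all libraries and for the smallest p of a comparison, except Wnt11, Sfrp5, Rspo2 and Dkkl1, which have a group at or near the floor of 3 counts. Library values are given for these, for the highest and lowest gene of each class and for 9 feedback targets. Of the other pathway genes, those with an unadjusted p under 0.05 are named. Every other value was chosen after the values were seen: Wnt5b, Fzd3, Lrp5, Sfrp2, Dkk2 and Apc, the fits with a low unadjusted p under other settings, and the fold changes of Wnt7b, Wls, Fzd9, Ctnnb1, Tcf7l2, Axin2, Lef1, Rnf43 and Znrf3. The fits were also run on simulated counts in which 200 genes changed 3-fold in Kmt2a+/LSL. That simulation held no library that deviates with GC content, so it does not show how the fits behave with one. A GC offset, alone and with the replicate block, a fit without 2 libraries and DESeq2 without Kmt2a+/+ replicate 1 were added after seeing the data.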

Additional observations from a re-analysis of the deposited data

How the results depend on the processing

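None of the 43 genes was called in any of the 6 comparisons under DESeq2 size factors, the DESeq2 test, limma-voom with sample quality weights, robust or legacy quasi-likelihood, no filter, a minimum of 10 counts per library, the replicate block, a GC offset, a GC offset with the replicate block, the fit without Kmt2a+/+ replicate 1 and nes-cre+/-Kmt2a+/LSL replicate 1 together, or with any 1 library of the genotypes compared left out in edgeR (range 0 to 0). Fits of only the genotypes compared, run for the 4 comparisons of a pair of genotypes, called none either. The exception was 1 gene, Wls, called for any difference among the 4 genotypes in DESeq2 without Kmt2a+/+ replicate 1.

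In Kmt2a+/LSL against Kmt2a+/+, 16 of the 43 fitted directions were opposite without Kmt2a+/+ replicate 1, none of them called. Among the genes whose fold change was recomputed under every alternative, Fzd9, Wls, Lrp5 and Rnf43 reversed under at least 1. For Fzd9 it was -0.36 in limma-voom, -0.50 without both libraries, -0.51 in DESeq2 without Kmt2a+/+ replicate 1, and between -0.50 and 0.55 with 1 library left out. For Wls it was 0.70 in limma-voom, 0.10 with the replicate block, 0.18 with the GC offset, 0.20 with both, 0.81 without both libraries, 0.80 in DESeq2 without Kmt2a+/+ replicate 1, and between -0.42 and 0.81 with 1 library left out. For Lrp5 it was 0.05 with the replicate block, and between -0.49 and 0.27 with 1 library left out. For Rnf43 it was between -0.33 and 0.05 with 1 library left out. The cause was not tested. The number of genes with an unadjusted p under 0.05 moved by over 1.5 times in 39 results under other methods or fits with added omissions and in 26 with 1 library left out, where it ranged from 0 to 4 for Kmt2a+/LSL and from 1 to 6 for nes-cre+/- against Kmt2a+/+. Same-numbered libraries had deviations correlated between -0.138 and 0.589, over 0.1 in 8 of 18 pairs. Their mean was 0.137, against -0.0653 for pairs with different numbers. These values do not settle whether the numbers pair the libraries, and the main fit treats them as unpaired. The replicate block left the number of called genes at 0 in all 6 comparisons. Depth limits Wnt11, Sfrp5, Dkk1, Dkk2 and Sp5, which had no more than 16 counts in any library.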
